A study of Sus scrofa with 15 samples.

Results

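The genes of coenzyme Q synthesis and of the 2 coenzyme Q binding proteins were followed through pig oocyte maturation. The 10 genes were chosen by symbol, 8 of them synthesis genes (*COQ2*, *COQ3*, *COQ4*, *COQ5*, *COQ6*, *COQ7*, *COQ8A* and *COQ9*) and 2 of them binding protein genes (*COQ10A* and *COQ10B*), out of 18565 genes matched to the transcript files. Poly(A) RNA of pools of pig oocytes was sequenced in 15 libraries, 5 of each group. GV (germinal vesicle) oocytes came uncultured from fresh follicles of abattoir sow ovaries, with the cumulus cells removed by hyaluronidase and vortexing. MII and ‘damaged’ oocytes came from cumulus oocyte complexes after 44 h of in vitro maturation, with the cumulus cells removed by hyaluronidase afterwards. Their culture medium held gonadotrophins (PMSG and hCG), EGF, insulin, cysteamine and sow follicular fluid. These groups differed in that a first polar body was seen in MII and not in ‘damaged’ oocytes. MIX denotes both matured groups together. The words matured and after maturation here mean after this culture, also for ‘damaged’ oocytes. Every MIX library and no GV library came from cultured oocytes, so a stage difference below cannot be told apart from one of culture. The 5 libraries of a group came from biologically independent collections, each of which gave oocytes of every group; the labels do not say whether a replicate number marks a collection.

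Coenzyme Q (ubiquinone) is the lipid that carries electrons from complexes I and II and other dehydrogenases to complex III of the mitochondrial respiratory chain, and its reduced form is an antioxidant in membranes. Its benzoquinone ring comes from tyrosine and its isoprenoid tail from the mevalonate pathway; COQ2 joins them, and a complex of COQ proteins on the inner mitochondrial membrane modifies the ring. COQ10A and COQ10B are lipid-binding START domain proteins that are needed for coenzyme Q to work in respiration. They are grouped here apart from the synthesis genes. Oocytes rely on mitochondrial respiration, and transcription is largely silent from the fully grown GV oocyte through MII.

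Totals of estimated counts ran from 6.40 to 23.6 M (M, 1e6 counts) per library. GV replicate 3 had the lowest total and was left out of the comparisons, which left 4 GV, 5 MII and 5 ‘damaged’ libraries. Libraries were scaled with TMM (trimmed mean of M values) factors, which lay at 1.35 to 1.73 in GV and 0.794 to 0.922 in MIX. Over the 13208 genes tested, the median log2 difference of MIX from GV was -0.16 with TMM and -1.06 with library sizes alone. A level here is thus one of poly(A) RNA, relative to the other transcripts of a library. Total RNA and the length of poly(A) tails were not measured, so a rise or fall below is one of captured poly(A) RNA. Less RNA per oocyte and a changed mixture of cells cannot be told apart in such pools. The 6 oocyte markers measured (*ZP2*, *ZP3*, *ZP4*, *GDF9*, *BMP15*, *MOS*) summed to 9636 to 11257 CPM (counts scaled to a common library total) in GV and 4812 to 7707 CPM in MIX. *ZP3* (1529 to 2073 CPM in GV, 59.7 to 138 CPM in MIX) and *GDF9* (1736 to 2315 and 255 to 426 CPM) had the largest differences, *ZP4* was lower by less (log2 fold change -0.62), and *ZP2*, *BMP15* and *MOS* passed the test in neither direction (-0.04, -0.16 and -0.20). The 8 cumulus and granulosa markers measured summed to 7.94 to 10.7 CPM in GV and 15.7 to 25.5 CPM in MIX, mostly *FST* (6.48 to 8.74 and 15.5 to 25.0 CPM). *TNFAIP6* reached 1.48 CPM in GV and 3.19 CPM in MIX, and the 6 other markers of this list stayed under 0.7 CPM in each of these libraries. Blood cell markers summed to at most 1.91 CPM and the 1 theca cell marker measured, *INSL3*, to at most 0.225 CPM. The part of the higher *FST* in the results below was not tested.

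Both binding protein genes were higher after maturation, while the synthesis genes split: *COQ5* and *COQ7* were higher, *COQ2*, *COQ3*, *COQ4* and *COQ8A* lower, and *COQ6* and *COQ9* passed the test in neither direction. Between MIX and GV, 4 of 10 genes were higher and 4 lower at a false discovery rate (FDR, limma-voom with Benjamini-Hochberg adjustment over all genes tested) under 0.01. Of all genes tested, 30% were higher and 37% lower by the same rule, so the share that changed was close to that of the transcriptome. By the criteria for a differentially expressed gene (DEG; the same FDR with a log2 fold change beyond 2 in either direction), 2 of 10 were upregulated (*COQ10A* and *COQ10B*) and 2 downregulated (*COQ3* and *COQ4*), against 4.27% and 16.8% of all genes tested. With library sizes alone the same 8 genes kept their directions and their calls, and *COQ6* and *COQ9* were also lower. Of all genes tested, 11.9% were higher and 60.1% lower in that setting. Of the 10 genes, 0 were then upregulated DEGs and 4 downregulated DEGs, against 45 and 3784 of the 13208 genes tested.

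**Figure D1:**
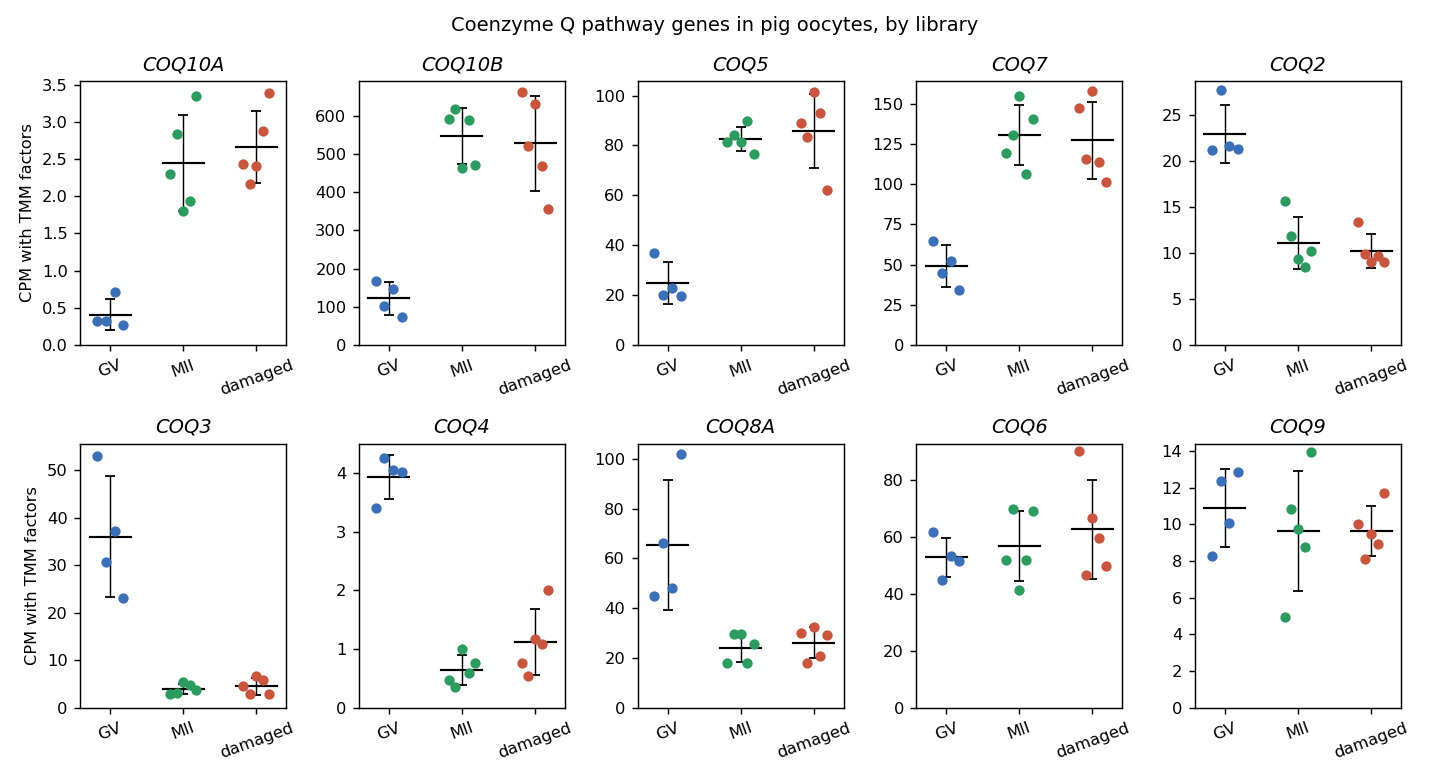
Level of each gene in every library of the comparisons, in CPM with TMM factors (each vertical axis starts at 0 and has its own scale), for GV (n = 4), MII (n = 5) and ‘damaged’ (n = 5) oocytes; horizontal bars are means and error bars the SD. The GV points of *COQ10A*, *COQ10B*, *COQ5* and *COQ7* lie below all MIX points, those of *COQ2*, *COQ3*, *COQ4* and *COQ8A* above, and those of *COQ6* and *COQ9* among them.

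*COQ10B* (chromosome 15, 101338012 to 101354714, Sscrofa11.1 in the RefSeq annotation) had the highest median TPM (abundance scaled by transcript length) of the 10 genes in each group, although in GV oocytes its range overlapped that of *COQ7*. Its level was 167, 101, 145 and 72.2 CPM in GV replicates 1, 2, 4 and 5. It was 591, 618, 463, 588 and 472 CPM in the 5 MII libraries and 662, 522, 631, 467 and 357 CPM in the 5 ‘damaged’ libraries. The lowest matured library therefore stood above the highest GV library by a wide margin, while the MII and ‘damaged’ values overlapped. The log2 fold change between MIX and GV was 2.20 (SE 0.191, FDR = 2.722e-09, limma-voom), and 1.30 with library sizes alone. Without GV replicate 5 it was 1.97, just under the DEG criterion.

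*COQ10A* (chromosome 5, 21665252 to 21670323) was the least abundant of the 10 in GV oocytes. It held 0.326, 0.326, 0.715 and 0.261 CPM in the 4 GV libraries, or 6.29 to 15.0 counts. It rose to 2.30, 2.84, 1.80, 1.93 and 3.35 CPM in MII and 2.44, 2.17, 2.41, 2.88 and 3.39 CPM in ‘damaged’ oocytes, or 23.3 to 53.7 counts. No GV library reached the lowest matured library. The log2 fold change was 2.67 (SE 0.332, FDR = 4.437e-07, limma-voom), and 1.77 with library sizes alone. *COQ10A* reached the CPM that the low-count filter requires in 1 of 4 GV and 10 of 10 MIX libraries, so it entered the test through the matured libraries, and its call lends no independent support to that of *COQ10B*.

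*COQ5*, the C-methyltransferase of the ring (chromosome 14, 40461610 to 40480586), and *COQ7*, the hydroxylase of the penultimate step (chromosome 3, 26366006 to 26373604), were the synthesis genes that rose. *COQ5* had 37.0, 20.04, 22.6 and 19.5 CPM in GV libraries, 76.7 to 89.8 CPM in MII (median 81.3) and 62.0 to 102 CPM in ‘damaged’ oocytes (median 89.0). Its log2 fold change was 1.81 (SE 0.162, FDR = 4.114e-09, limma-voom), and 2.03 without GV replicate 1, the GV library with the highest *COQ5* level. *COQ7* had 64.8, 44.5, 52.5 and 34.0 CPM in GV libraries, 107 to 155 CPM in MII and 102 to 158 CPM in ‘damaged’ oocytes. Neither gene's GV values overlapped with its matured values. The log2 fold change of *COQ7* was 1.42 (SE 0.161, FDR = 1.187e-07, limma-voom) and fell to 0.52 with library sizes alone (FDR = 0.003387), the smallest rise among the 4 genes.

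*COQ3*, the O-methyltransferase that acts at more than one step of ring modification (chromosome 1, 66321288 to 66347088), had the largest fall of the 10. It held 53.1, 30.6, 37.3 and 23.1 CPM in GV libraries. It held 2.89, 3.02, 5.44, 4.72 and 3.67 CPM in MII and 4.49, 2.75, 6.72, 5.78 and 2.79 CPM in ‘damaged’ libraries. Even the lowest GV value was several times the highest matured one. The log2 fold change was -3.06 (SE 0.233, FDR = 3.859e-10, limma-voom).

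*COQ4*, long regarded as an organizer of the synthesis complex (chromosome 1, 268756690 to 268768355), had 3.40, 4.26, 4.06 and 4.02 CPM in GV libraries, a narrow spread. It had 0.474, 0.344, 1.00, 0.584 and 0.769 CPM in MII and 0.761, 0.532, 1.18, 1.09 and 2.01 CPM in ‘damaged’ libraries. All GV libraries stood above all matured ones. The log2 fold change was -2.26 (SE 0.252, FDR = 9.777e-08, limma-voom). The matured values rest on 4.53 to 29.8 counts, and *COQ4* reached the filter's CPM in 4 of 4 GV but 5 of 10 MIX libraries.

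The falls of *COQ2* and *COQ8A* were smaller. *COQ2*, the prenyltransferase that joins ring and tail (chromosome 8, 135130486 to 135150428), had 21.2 to 27.7 CPM in GV, 8.499 to 15.6 CPM in MII and 9.01 to 13.4 CPM in ‘damaged’ oocytes, with a log2 fold change of -1.13 (SE 0.154, FDR = 1.398e-06, limma-voom). *COQ8A*, an atypical kinase that acts on the synthesis complex (chromosome 10, 14597237 to 14643394), had 45.0, 66.3, 48.2 and 102 CPM in GV libraries, 18.1 to 29.4 CPM in MII and 18.003 to 32.4 CPM in ‘damaged’ oocytes. Its log2 fold change was -1.34 (SE 0.206, FDR = 7.004e-06, limma-voom). GV replicate 5 had the highest *COQ8A* level, and without any 1 library the change ran from -1.48 to -1.09.

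*COQ6*, a ring hydroxylase (chromosome 7, 97258617 to 97270927), and *COQ9*, the lipid-binding partner of COQ7 (chromosome 6, 19373052 to 19390738), overlapped between stages. *COQ6* had 45.0 to 61.8 CPM in GV and 41.4 to 90.4 CPM in MIX libraries, with a log2 fold change of 0.15 (SE 0.166, FDR = 0.4194, limma-voom). With library sizes alone its sign turned, to -0.74 (FDR = 0.0002182, limma-voom). *COQ9* had 8.27 to 12.8 CPM in GV and 4.94 to 13.96 CPM in MIX libraries, with a log2 fold change of -0.19 (SE 0.199, FDR = 0.3971, limma-voom), and of -1.08 with library sizes alone (FDR = 0.0002373, limma-voom). The direction of *COQ6* and the call of both genes thus depend on the scaling.

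**Figure D2:**
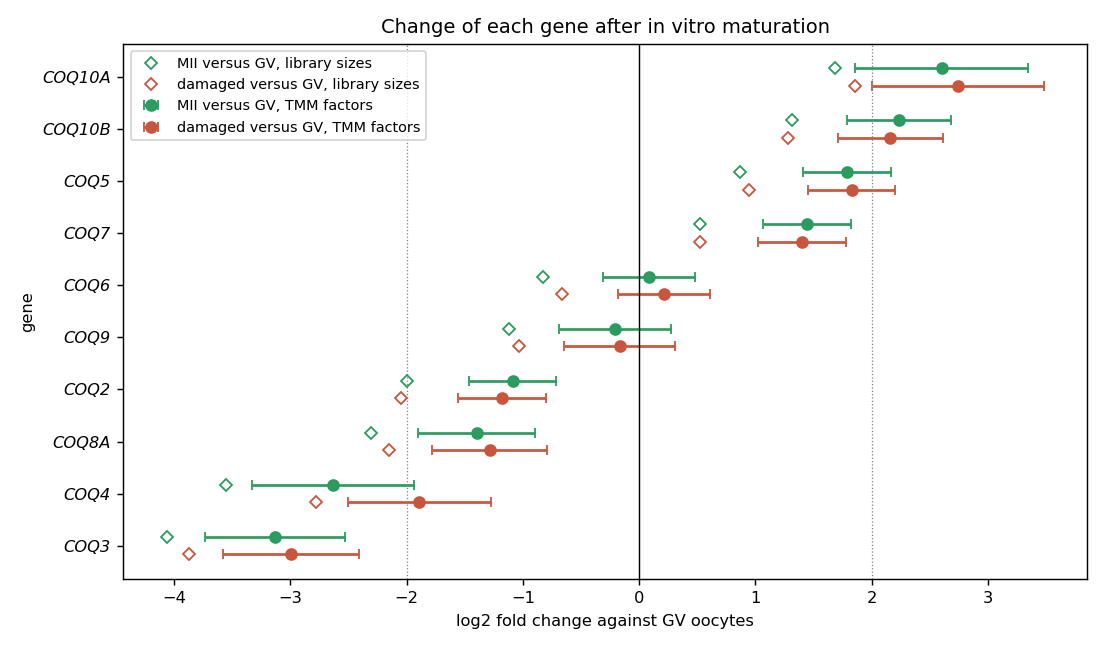
Log2 fold change of each gene in MII (green) and ‘damaged’ (red) oocytes against GV oocytes; filled circles with 95% confidence intervals use TMM factors, open diamonds library sizes alone, and dotted lines mark the DEG criterion of 2 in either direction. Both matured groups share the GV libraries; library sizes shift each gene to the left, which moves *COQ6* from 0.09 to -0.83 in MII, while *COQ10A* and *COQ10B* stay above 0 and *COQ3* and *COQ4* below it.

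MII and ‘damaged’ oocytes, which each were compared with the same GV libraries, gave the same calls. In MII oocytes 4 of 10 genes were higher and 4 lower than in GV (28.2% and 34.2% of all genes tested), and in ‘damaged’ oocytes likewise 4 and 4 (28% and 33.4%). *COQ10B* changed by 2.24 in MII and 2.16 in ‘damaged’ oocytes on the log2 scale, *COQ10A* by 2.60 and 2.74, *COQ5* by 1.79 and 1.83, and *COQ7* by 1.45 and 1.40. *COQ3* changed by -3.13 and -2.99, *COQ8A* by -1.40 and -1.29, and *COQ2* by -1.09 and -1.18. *COQ4* was a DEG in MII (-2.63) and not in ‘damaged’ oocytes (-1.89).

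The direct comparison of MII with ‘damaged’ oocytes found 0 of 10 genes at an FDR under 0.01 and 0 at an unadjusted p under 0.05 (limma-voom). Over all genes tested, 0% passed the FDR and 1.46% the unadjusted p. edgeR and DESeq2 also called 0 of 10. The largest difference was that of *COQ4*, at -0.74 in MII relative to ‘damaged’ (95% interval -1.53 to 0.04, FDR = 0.9999, limma-voom), so the unequal DEG calls of *COQ4* are not shown to be a difference between the groups. For *COQ10B* the difference was 0.07 (95% interval -0.34 to 0.49) and for *COQ10A* -0.14 (-0.65 to 0.37). These intervals still hold differences of moderate size.

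In CPM with TMM factors, 4 of 10 genes lay higher in every MIX library than in every GV library (*COQ5*, *COQ7*, *COQ10A*, *COQ10B*). By the same rule 4 lay lower (*COQ2*, *COQ3*, *COQ4*, *COQ8A*). Of all genes tested, 24.3% and 29.4% did so. These sets depend on the scale. In TPM, which carries no TMM factors, *COQ7* overlapped (145 to 189 TPM in GV, 179 to 295 TPM in MII). *COQ6* did not, at 52.3 to 68.1 TPM in GV, 24.4 to 37.1 TPM in MII and 24.6 to 45.9 TPM in ‘damaged’ oocytes.

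Binding protein and synthesis genes were next set against each other within each library, since a ratio of 2 genes in a library is moved by no scaling between libraries. The log2 ratio of *COQ10B* to *COQ3* counts lay at 1.65 to 1.96 in the GV libraries and at 6.33 to 7.66 in the matured ones, the widest separation among the synthesis genes for *COQ10B*. That to *COQ2* lay at 1.76 to 2.98 and 5.24 to 6.13, and that to *COQ7*, which itself rose, at 1.09 to 1.47 and 1.58 to 2.46. For 7 of 8 synthesis genes every MIX ratio was above every GV ratio, the exception being *COQ5* (1.89 to 2.68 in GV, 2.33 to 2.89 in MIX). With *COQ10A* as numerator this held for 6 of 8, not for *COQ5* and *COQ7*. With the same numerators it held for 76.3% (*COQ10B*) and 81% (*COQ10A*) of all other genes tested, so the shift was not particular to the synthesis genes.

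**Figure D3:**
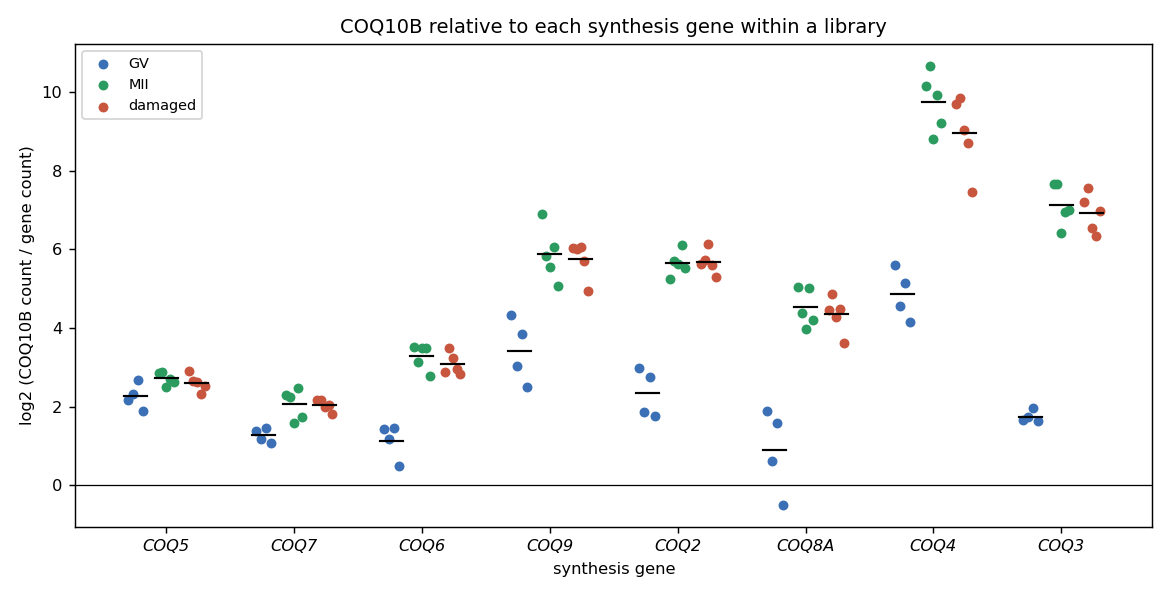
Log2 ratio of *COQ10B* counts to the counts of each synthesis gene within a library, for GV (blue, n = 4), MII (green, n = 5) and ‘damaged’ (red, n = 5) libraries; black bars are group means. GV points lie below all matured points for each gene but *COQ5*, and the gap is widest for *COQ3* (1.65 to 1.96 against 6.33 to 7.66).

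Levels of different genes were compared in TPM, an abundance that is scaled by transcript length to the same total in each library. In GV oocytes *COQ10B* (130 to 212 TPM) and *COQ7* (145 to 189 TPM) led and overlapped. *COQ6*, *COQ3*, *COQ8A*, *COQ2*, *COQ5* and *COQ9* followed, each overlapping the next in that order, from a median of 56.4 TPM for *COQ6* to 17.5 TPM for *COQ9*. *COQ4* (4.89 to 8.45 TPM) and *COQ10A* (0.44 to 1.15 TPM) stood apart below them.

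In MII oocytes the order was *COQ10B* (346 to 429 TPM), *COQ7* (179 to 295 TPM), *COQ5* (39.2 to 45.5 TPM) and *COQ6* (24.4 to 37.1 TPM), with no overlap between these neighbours. *COQ3* had a median of 56.0 TPM in GV, 2.93 TPM in MII and 3.38 TPM in ‘damaged’ oocytes. TPM carries no TMM factors, so this fall looks larger than the fitted log2 fold changes of -3.13 in MII and -2.99 in ‘damaged’ oocytes. *COQ10A* (median 1.79 TPM) now stood above *COQ4* (median 0.48 TPM) in MII without overlap, whereas in ‘damaged’ oocytes these overlapped (1.71 to 3.22 and 0.45 to 2.03 TPM). *COQ10B* made up 22.1 to 33.7% of the summed TPM of the 10 genes in GV, 48.1 to 60.2% in MII and 49.3 to 56.5% in ‘damaged’ libraries. The share of *COQ7* lay within 24.7 to 38.1% in all 3 groups, and the 6 synthesis genes other than *COQ5* and *COQ7* together held 32.0 to 48.9% of the sum in GV, 7.34 to 9.93% in MII and 7.25 to 11.01% in ‘damaged’ libraries.

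Transcript isoforms of 5 of the 10 genes could be tested, with 14 isoforms (those with a share over 5% in a gene over 1 TPM, on average in GV or MIX). At an FDR under 0.01 and a difference in share over 10 percentage points, 5 of 14 isoforms in 2 genes were called (limma diffSplice), against 34.9% of all 15762 isoforms tested. Single-end reads assigned among overlapping isoforms make these shares estimates. Isoform levels below are in TPM without TMM factors, so they set MIX lower against GV than the CPM above.

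Of *COQ5*, isoform ENSSSCT00000010853.5 made up 78.6, 37.5, 67.1 and 44.8% in the 4 GV libraries and 77.8 to 91.9% in the MIX libraries, and ENSSSCT00000076075.1 the rest. The GV shares were widely spread, and GV replicate 1 lay within the MIX range. The mean difference was 26.3 percentage points (FDR = 0.0001215, limma diffSplice), and 19.8 to 33.5 points without any 1 library. In level, ENSSSCT00000010853.5 had 8.31 to 24.9 TPM in GV and 29.1 to 42.4 TPM in MIX, without overlap. ENSSSCT00000076075.1 had 6.80 to 13.8 and 3.59 to 11.2 TPM, with overlap. As TPM carries no TMM factors, these levels do not show that only 1 of the isoforms rose.

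Of *COQ3*, isoform ENSSSCT00000099490.1 made up 47.2 to 67.2% of the gene's TPM in GV libraries and 0 to 37.2% in matured ones (FDR = 0.001213, limma diffSplice). The shares of ENSSSCT00000047364.3 (0.005 to 14.5% in GV, 21.5 to 72.2% in MIX, FDR = 8.555e-06) and ENSSSCT00000004805.5 (0.661 to 2.18% and 14.4 to 37.5%, FDR = 0.002111) were higher, without overlap in these libraries. In GV replicate 3, outside the comparisons, ENSSSCT00000047364.3 held 32.8%, within its MIX range. Its level was 5.63 to 6.55 TPM in GV replicates 2, 4 and 5, above the 0.79 to 2.46 TPM in MIX. In GV replicate 1 it was 0.003 TPM. In level, ENSSSCT00000004805.5 overlapped between stages, at 0.39 to 1.15 TPM in GV and 0.44 to 1.33 TPM in MIX, and its 4 to 22 counts per library are few; with a count filter on isoforms its share was not called. The other *COQ3* isoforms, ENSSSCT00000004806.5 (FDR = 0.1503) and ENSSSCT00000028667.4 (FDR = 0.0408), were not called.

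*COQ10B* had 2 isoforms of similar share, ENSSSCT00000043379.2 with 38.5 to 54.2% in the GV libraries, 45.7 to 60.0% in the matured ones, and ENSSSCT00000017504.4 the rest, and neither was called (FDR = 0.269, limma diffSplice). In level, the first had 49.99 to 112 TPM in GV and 166 to 265 TPM in MIX, the second 80.0 to 107 TPM and 143 to 222 TPM, so both lay above the GV range in every matured library. The isoforms of *COQ8A*, ENSSSCT00000051518.3 and ENSSSCT00000050670.3 (FDR = 0.9244), and of *COQ9*, ENSSSCT00000048525.2 (FDR = 0.09292), ENSSSCT00000091479.2 (29.3% in GV and 11.5% in MIX on average, FDR = 0.01347) and ENSSSCT00000087164.2 (FDR = 0.3404), did not pass either. With the model of DEXSeq, ENSSSCT00000091479.2 did (FDR = 8.734e-05).

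**Figure D4:**
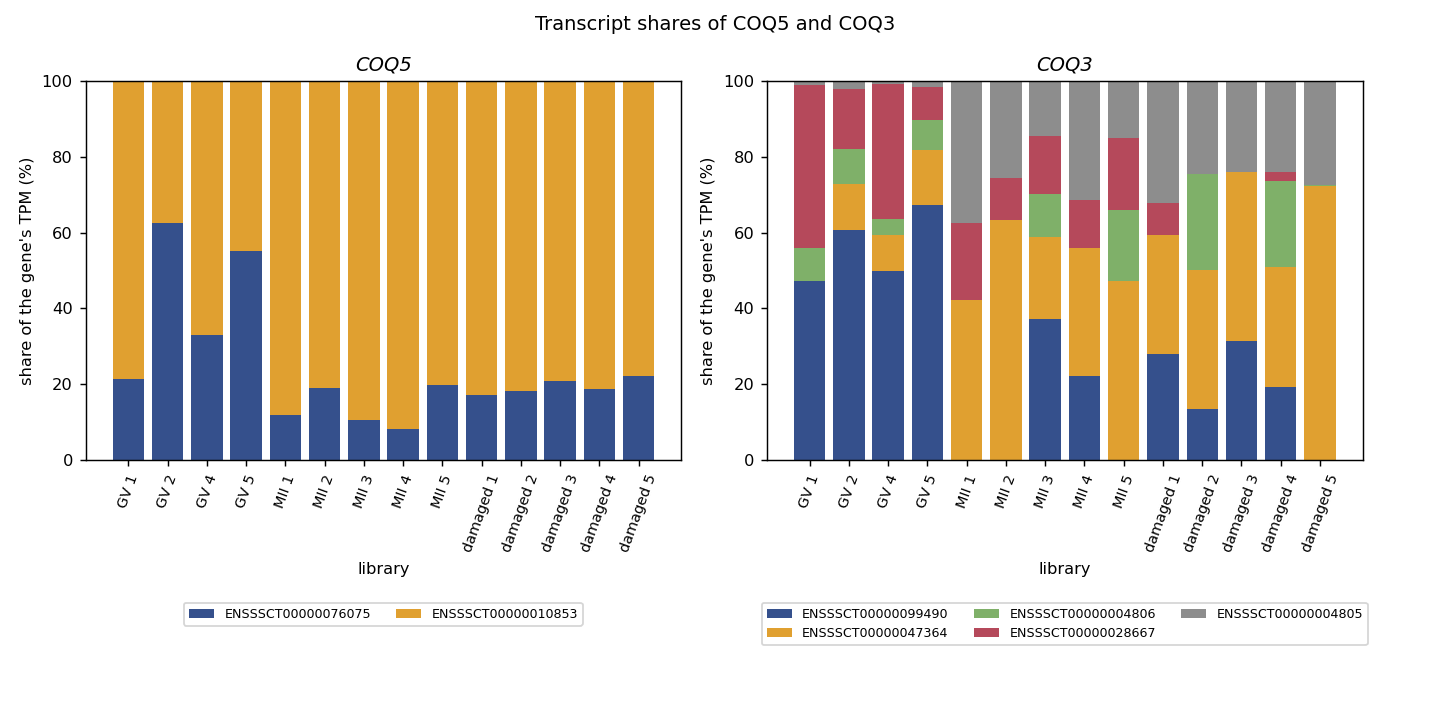
Share of the gene's TPM held by each isoform of *COQ5* (left) and *COQ3* (right), in percent, in each of the 14 libraries of the comparisons (numbers are replicates; identifiers without version). The *COQ5* isoform ENSSSCT00000010853.5 holds 37.5 to 78.6% in GV and 77.8 to 91.9% in matured libraries; ENSSSCT00000099490.1 is the leading *COQ3* isoform in GV, at 47.2 to 67.2%.

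The genes around the synthesis steps were described from lists. Of 48 listed genes, 42 were tested; 10 were higher, 18 lower and 14 passed in neither direction between MIX and GV, with a median log2 fold change of -0.52 beside -0.16 over all genes tested. The shares lie near the 30% higher and 37% lower of all genes tested. With library sizes alone 3 (*ACAT2*, *PARL* and *SDHC*) were higher and 28 lower, where 11.9% of all genes tested were higher and 60.1% lower.

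In the supply of tail and ring, *TAT*, an enzyme that acts on tyrosine, the source of the ring, was lower (log2 fold change -2.88, SE 0.336, FDR = 1.862e-07, limma-voom). *PDSS1* and *PDSS2*, subunits of the enzyme that makes the polyprenyl tail, had values of -0.17 (FDR = 0.3779) and 0.38 (FDR = 0.08208). *HPD* was not tested and *HPDL* was not matched. Of the 10 mevalonate pathway genes, 3 were higher and 5 lower (30% and 37% of all genes tested). *MVD*, which makes isopentenyl diphosphate, had the largest fall (-4.50, SE 0.367, FDR = 1.093e-09, limma-voom) and *ACAT2*, which joins acetyl-CoA units at the start of the pathway, the largest rise (2.07, SE 0.317, FDR = 6.907e-06, limma-voom).

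Among 7 regulators and transport genes, 2 were higher and 2 lower (30% and 37% of all genes tested). *PARL*, the mitochondrial protease that processes the lipid carrier STARD7, rose by 1.83 (FDR = 1.288e-09, limma-voom) and *STARD7* itself by 0.55 (FDR = 0.001528), the latter turning to -0.34 with library sizes alone. *ADCK5*, a relative of *COQ8A*, had the largest fall (-4.67, FDR = 6.547e-09, limma-voom). *COQ8B*, the paralogue of *COQ8A*, had -1.35 (SE 0.506, FDR = 0.0218) and *PPTC7*, a mitochondrial phosphatase, -0.62 (FDR = 0.162).

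In the chain that supplies electrons to COQ6, *FDXR* (ferredoxin reductase) was lower by -3.88 (SE 0.361, FDR = 7.645e-09, limma-voom) and *FDX2* by -3.33 (SE 0.433, FDR = 8e-07), while *FDX1* had 0.06 (FDR = 0.778). *COQ6* itself, as given above, passed in neither direction.

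Of the enzymes that reduce coenzyme Q outside complex I, 5 of 11 tested were higher and 2 lower (30% and 37% of all genes tested), and with library sizes alone *SDHC* was the only 1 of the 5 still called. *SDHC*, a membrane anchor of complex II, had the largest rise (1.87, SE 0.223, FDR = 2.636e-07, limma-voom) and *PRODH2*, a hydroxyproline dehydrogenase, the largest fall (-4.42, SE 0.400, FDR = 5.032e-09). Of complex III, which oxidises reduced coenzyme Q, 0 of 8 tested genes were higher and 6 lower (30% and 37% of all genes tested). In MII 4 were lower and in ‘damaged’ oocytes 5 (34.2% and 33.4% of all genes tested). Between MIX and GV, *UQCRFS1* (-0.44, FDR = 0.008923, limma-voom) lost its call under most alternatives, edgeR and DESeq2 among them. The lowest was *UQCRC1*, a core subunit (-2.32, SE 0.184, FDR = 7.195e-10, limma-voom).

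The genes whose log2 CPM over the 14 libraries was most like that of *COQ10B* were *BBS5* (Pearson r = 0.996), *UFSP2* (0.995) and *PIAS1* (0.994). For *COQ10A* they were *GCNT1* (0.981), *C1orf35* (0.971) and *NR2F1* (0.971). These 14 points fall into GV and matured libraries and share their scaling, so the values describe a common stage difference and carry no test.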

How the data were processed

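Pig oocyte RNAseq was used in 15 libraries (SMART-Seq HT, single-end reads of 75 bases). Per the labels, Kallisto (version 0.43) and Sscrofa11.1 were used; the authors deposited estimated counts and TPM for 46369 transcripts per library and a table of estimated counts per gene made from TPM and transcript length (lengthScaledTPM), unfiltered. Lengths in the transcript files, another column the authors deposited, served the same sums. The gene table has 15 columns; the names of 7 disagreed with the transcript files' totals, and these were not used. The other 8 gave the map from transcripts to genes, by which every library's gene counts were rebuilt from its transcript file (18565 genes matched, largest deviation 0.0305%, 99.97 to 99.99% of counts assigned). Gene positions are from RefSeq by symbol.

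Genes passed edgeR's filterByExpr (minimum count 10, total 15), and limma-voom (limma 3.58.1, edgeR 4.0.16, R 4.3.3) with TMM factors was fitted over 14 libraries; MIX is the mean of the MII and ‘damaged’ means. Isoform shares were tested with limma diffSplice. Ratios used counts + 0.5. Scripts were tested on simulated data. Alternatives were library sizes, DESeq2 (1.42.0) size factors and test (on estimated counts rounded to whole numbers), edgeR's quasi-likelihood test, other filters, summed Kallisto counts, all GV libraries, library weights, a replicate block and each library left out. The total count sets the precision, which for *COQ10A* and *COQ4* is low. All 10 genes were named; of each list the largest rise and fall at an FDR under 0.01, every gene of the supply lists and *COQ8B*, *PPTC7*, *PARL* and *STARD7*; and the 3 genes most like each binding protein gene. Single values of some listed genes are not reported here. Members and lists were chosen with earlier results of these data known. Libraries of a group differed beyond counting noise in all 30 pairs (chi-square per gene 15.1 to 209).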

Additional observations from a re-analysis of the deposited data

Results flagged for a closer look

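In 3 of 30 groups of 4 or 5 libraries a level stood apart from the others by Dixon's test, where chance gives about 1 in 20. *COQ2* had 27.7 CPM in GV replicate 2, with the next GV library at 21.6 CPM, and 13.4 CPM in ‘damaged’ replicate 1, with the next at 9.85 CPM. *COQ10A* had 0.715 CPM in GV replicate 4, with the next at 0.326 CPM. The log2 fold changes without any 1 library ran from -1.19 to -1.04 for *COQ2* and from 2.49 to 2.97 for *COQ10A*.

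In GV replicate 3, the shallow library outside the comparisons, the *COQ6* isoform ENSSSCT00000047817.3 had 37.8 TPM, against at most 3.10 TPM in any other library, while ENSSSCT00000002618.5, which held nearly all *COQ6* TPM elsewhere, had 18.2 TPM there.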

How the results depend on the processing

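The 8 calls between MIX and GV kept their direction and their side of the threshold under each alternative that could test the gene. With library sizes alone, DEGs among the 10 genes were 0 higher and 4 lower. Of the 13208 genes tested, 45 and 3784 were. Listed genes were 3 higher and 28 lower, beside 11.9% and 60.1% of all genes tested. In the same setting signs turned for *COQ6* (-0.74, with -0.83 in MII and -0.66 in ‘damaged’), *PDSS2* (-0.52), *GGPS1* (-0.45) and *STARD7* (-0.34). They also turned for *FDX1* (-0.83), *GPD2* (-0.61), *AIFM2* (-0.80) and *UQCRC2* (-0.62). With a filter of 10 CPM in 4 libraries, which drops *COQ10A* and *COQ4*, 0 DEGs among the members were higher and 1 lower. Of the 7460 genes it left to test, 181 and 1176 were. Under this filter *COQ6* (-0.17, with -0.24 in MII and -0.10 in ‘damaged’) and *FDX1* (-0.26) turned. With summed Kallisto counts *PDSS2* had -0.0070. The causes of the other shifts were not tested. Without any 1 library upregulated DEGs among the 10 genes ran from 1 (without GV replicate 5) to 3 (without GV replicate 1), *FDX1* from -0.023 to 0.12 and *AIFM2* from -0.041 to 0.20. Isoforms called numbered 4 to 6 of 14 over all alternatives, with 4 under the count filter, where ENSSSCT00000004805.5 of *COQ3* missed the threshold. Of 714 recomputed fold changes of the 10 genes, 705 kept direction and call.

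Whether replicate numbers pair the libraries is not settled: the 13 same-number pairs had r from -0.10 to 0.32 (median 0.071, 3 over 0.1; median -0.009 for other pairs), and 9 of 14 libraries correlated best with one of their own number, a hint of pairing from the data and not the design. With the replicate block 4 genes were higher and 4 lower as before, and MII against ‘damaged’ gave 0 of 10.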
